A study of Bos taurus with 42 samples.

Results

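The cerebrum of the bovine fetus at day 50 of gestation was compared with liver and hind limb muscle from the same animals. The members are the 14 libraries that the labels name as cerebrum, of 42 RNA-Seq libraries in all, and each of the 14 fetuses gave 1 library per tissue. All dams were Angus-cross heifers bred by artificial insemination to a common sire. From breeding on, 7 dams received 100% of the energy requirement (CON, *n* = 7, with 6 male fetuses and 1 female), and 7 received 60% of the CON intake (RES, *n* = 7, with 5 males and 2 females). RNA came from tissue and not from sorted cells, so that a library holds RNA of every cell type in the piece taken. The deposited values are counts of reads on 22,664 genes. Cerebrum libraries held 4,145,093 to 7,576,159 counts (median 5,322,765.5), liver libraries 6,658,218 to 12,741,299 and muscle libraries 5,384,018 to 7,592,149. Levels are given as CPM, the count scaled to a library of 1,000,000 reads after TMM scaling of the library size, and folds and tests compare samples for 1 gene at a time. Lengths of genes were not used, so a sum over a list or a rank of genes by counts follows reads and not transcripts. In a cerebrum library, 3 counts stand for 0.359 to 0.646 CPM, which is about the smallest level that the depth can show.

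The cerebrum forms from the most anterior part of the neural tube. Apical progenitors (radial glia) line its ventricles and divide there. They give rise to intermediate progenitors and to neurons, which migrate outward, grow axons and begin to build synapses. Excitatory neurons of the cortex come from the dorsal telencephalon and use glutamate, and most inhibitory neurons come from its ventral part and use GABA. Transcription factors such as *OTX2* and *PAX6* divide this tissue into regions, while genes of the HOX clusters act in the hindbrain, the spinal cord and the trunk.

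The 3 marker genes set for the cerebrum were high in the libraries with that label. Of these, *NEUROD6* and *TBR1* passed the filter on low counts, described below, only because of the cerebrum. Their differences are descriptions and no test of the label. The paper also named *NEUROD6* among the cerebrum-specific genes of these animals. *NEUROD6* (ENSBTAG00000000558), a transcription factor of cortical excitatory neurons, had a lowest level of 22.7 CPM, a median of 92.4 and a highest of 354 in the 14 cerebrum libraries. In the liver its level was at most 0.416 CPM, and in muscle at most 1.63. *TBR1*, a transcription factor of the first cortical neurons, ran from 14.1 CPM over a median of 38.3 to 118, against at most 0.184 in the liver and 0.490 in muscle. *GAD1*, which makes GABA from glutamate, ran from 133 CPM over a median of 244 to 279, against at most 0.737 in the liver and 4.91 in muscle. For each of the 3 genes, all 14 cerebrum libraries lay above all 28 others. In tissue RNA, more cells of a type and more RNA per cell cannot be told apart, here and in all results below.

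Among the cerebrum libraries, that of RES fetus 1 stood apart. The mean correlation of its log2 CPM with the other 13 was 0.839, whereas the others had between 0.918 and 0.959. Markers of other tissues were highest in it. The summed level of 13 hepatocyte genes was 535 CPM (median of the cerebrum libraries 13.7, liver median 252,904), that of 5 erythroid genes 266 CPM (median 9.97), and that of 12 skeletal muscle genes 285 CPM (median 13.2, muscle median 5326). The same library had the lowest sums for young neurons (5565 CPM against a median of 11,561) and for synapse genes (597 CPM against 1674), and 14.7% of its counts fell on 12 mitochondrial genes (median 4.18%). Without the mitochondrial genes, 1656 genes were higher and 1165 lower by the 2-fold call described in the next paragraph, against 1642 and 1153 with them, and without this library (chosen after seeing the data) 1691 and 1383. Leaving out this library changed the counts of 4 lists, given where each is described. In muscle, the library of CON fetus 73 had 4332 CPM over the 24 genes of young neurons, where the other muscle libraries had between 462 and 1292. The second highest, 1292 CPM, was that of RES fetus 1, and the muscle median was 638 CPM. In the liver, the mitochondrial genes took 67.7% of the counts of fetus 1, 44.9% of fetus 2, 35.6% of fetus 6 and 30.5% of fetus 33, against 4.04% to 16.4% in the other 10 liver libraries. Without these 4 liver libraries, 1680 genes were higher and 1239 lower by the same call.

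Most genes differed between the organs. Of 15,972 genes that passed the filter on low counts, 6549 (41.0%) were higher and 6255 (39.2%) lower in the cerebrum than in the mean of liver and muscle (edgeR quasi-likelihood test with the fetus as block, adjusted *p* under 0.05). The median log2 difference over all genes was 0.02. A stricter call asked for a change beyond 2-fold against the liver and against muscle. By this call 1642 genes (10.3%) were higher in the cerebrum and 1153 (7.22%) lower. Differences of more than 16-fold against both tissues were found for 403 of the higher genes and for 64 of the lower ones. All 14 cerebrum libraries lay above all 28 others for 807 genes (5.05%) and below them for 328 (2.05%). Without the cerebrum library of fetus 1 these counts were 1272 and 943, and without the muscle library of fetus 73 they were 1113 and 359.

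**Figure D1:**
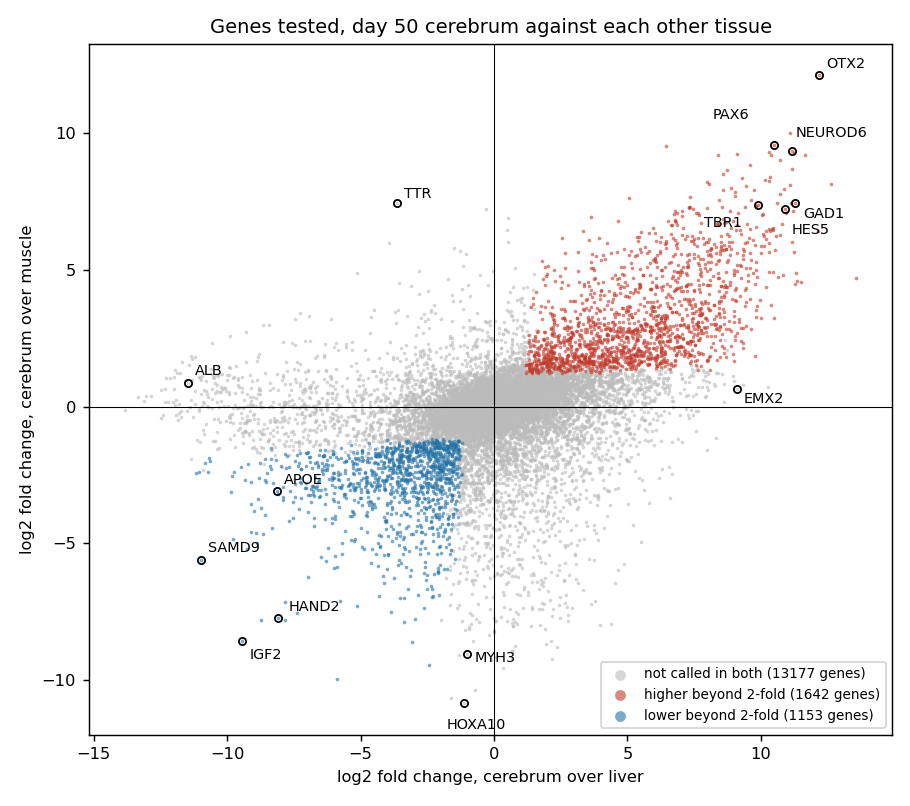
Log2 fold change of cerebrum over liver (horizontal axis) and of cerebrum over muscle (vertical axis) for the 15,972 genes tested, 1 point per gene. Red points are the 1642 genes higher and blue points the 1153 genes lower beyond 2-fold against both tissues. *OTX2* is at the upper right end and *IGF2* at the lower left, while *ALB*, *MYH3* and *HOXA10* are far below 1 of the tissues only.

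Names were available for 5105 of the genes tested (32.0%). They come from the study's supplementary tables, which hold genes picked there as tissue-specific, differentially expressed, regulatory or differentially co-expressed. A symbol was known for 29.5% of the 1642 higher genes and for 43.5% of the 1153 lower ones, so that the named genes are no random part of either group. Of 432 genes in 28 lists, 224 had a symbol there and passed the filter. The filter asked for 1 CPM or more in at least 9 of the 42 libraries. Of the genes tested, 1001 passed it only because of the cerebrum libraries, among them 665 of the 1642 higher genes. Such a gene was picked by its level in the cerebrum, so that for lists of forebrain and neuronal genes the share called higher was largely set by the filter. These counts and medians, and the differences of such genes, are descriptions. The number of genes that passed on the 28 liver and muscle libraries alone is given with these counts. Conversely, 10 of 11 HOX genes and 7 of 12 skeletal muscle genes passed only because of muscle. So did 3 of 7 peripheral nerve genes and all 4 genes of cartilage and limb mesenchyme. In the same way, 6 of 13 hepatocyte genes and 3 of 5 erythroid genes passed only because of the liver. The lower calls of such genes are descriptions as well. The counts of each list below are to be set against the shares of all genes called, 41.0% higher and 39.2% lower, and 10.3% and 7.22% beyond 2-fold against both tissues.

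Genes that set up the forebrain were higher in the cerebrum by very unequal amounts. All 13 listed genes tested were higher in it, 11 of them beyond 2-fold against both tissues, but 9 of the 13 passed the filter only because of the cerebrum. The 4 that passed on liver and muscle alone were higher, 2 of them beyond 2-fold. The list had a median log2 difference of 7.94 (7.54 with genes without counts in a tissue set to 3 counts). *OTX2*, which is needed to form the head and forebrain, had the largest log2 difference of the genes named by the fixed rule. It ran from 43.9 CPM over a median of 85.1 to 125, and not a single read was counted on it in any of the 28 other libraries. Set against 3 counts over the 14 libraries of a tissue, its level was at least 2002-fold higher than in the liver and at least 3266-fold higher than in muscle. *SIX3*, which keeps the anterior forebrain free of posterior signals, ran from 12.3 CPM over 40.4 to 54.2. It had no counts in the liver, at least 917-fold below the cerebrum, and at most 0.493 CPM in muscle, a log2 difference from muscle of 8.10 ± 0.33 (SE).

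*OTX1*, a relative of *OTX2* used in the cortex, ran from 25.9 CPM over a median of 43.9 to 52.3, a log2 difference of 8.54 ± 0.27 (SE). This gene passed the filter only because of the cerebrum. Its tissues did not overlap either. *EMX2*, which patterns the cortex and also acts in limb girdles and the urogenital tract, was not limited to the brain. Its level was 13.2 to 43.8 CPM in the cerebrum and 6.08 to 25.7 CPM in muscle, so the ranges overlapped, with a log2 difference of 9.09 ± 0.33 against the liver but 0.65 ± 0.17 against muscle. *NR2F2*, a nuclear receptor of many developing organs, differed least in this list, by 0.87 ± 0.11. Its cerebrum levels were 66.8 to 185 CPM, against 35.4 to 66.2 for liver and 52.5 to 81.2 for muscle, and it was the most abundant gene of the list in all 3 tissues. *ZIC2*, a transcription factor of the dorsal and midline forebrain and of the neural tube, had 40.1 to 119 CPM in the cerebrum, at most 0.447 in the liver and 0 to 25.1 in muscle (median 12.0), a log2 difference from muscle of 2.88 ± 0.37. The summed level of the list had a median of 498 CPM in cerebrum libraries, against 48.0 for liver and 95.6 for muscle.

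Progenitor genes differed from gene to gene. All 7 apical progenitor genes tested were higher, 4 of them beyond 2-fold against both tissues, and the median log2 difference was 7.31. Only 3 of the 7 passed the filter on liver and muscle alone, and none of these was beyond 2-fold against both. *PAX6*, a transcription factor of radial glia and of the eye, ran from 24.98 CPM over a median of 41.8 to 74.8, against at most 0.149 in the liver and 0.245 in muscle. Its log2 difference of 10.04 ± 0.22 is a description, since *PAX6* passed the filter only because of the cerebrum. Only 1 read was counted on it in the liver, a ratio of 3264 with a 95% counting interval of 585 to 128,943. *NR2E1*, which maintains neural stem cells, ran from 4.52 CPM over 15.01 to 31.9 and differed by 8.10 ± 0.26. By contrast, *HES1*, which keeps progenitors of many tissues undifferentiated, had 16.2 to 38.4 CPM in the cerebrum and 17.7 to 45.6 CPM in muscle, with a log2 difference from muscle of -0.11 ± 0.16. *FGFR3*, a growth factor receptor of progenitors and of other tissues, was at 36.2 to 127 CPM in the cerebrum and at 82.5 to 256 CPM in the liver, lower than there by 0.64 ± 0.25 on the log2 scale (edgeR adjusted *p* = 0.0182).

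Of 12 genes of intermediate progenitors and proneural factors, 11 were higher and 10 were higher beyond 2-fold against both tissues (median log2 difference 6.70, or 6.30 with genes without counts in a tissue set to 3 counts). On liver and muscle alone 4 passed the filter, 3 of them higher. *EOMES*, the marker of intermediate progenitors, ran from 3.53 CPM over a median of 16.6 to 44.3, against at most 0.349 CPM elsewhere. *NEUROG2*, a proneural factor of the dorsal telencephalon, ran from 6.67 CPM over 18.2 to 31.5. The exception was *BTG2*, an antiproliferative gene, which was lower in the cerebrum by 2.00 ± 0.23 on the log2 scale. It had 0.739 to 4.21 CPM there, whereas liver had 10.7 to 91.9 CPM and muscle 2.04 to 4.99 CPM, so that only the liver was free of overlap.

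The Notch pathway lets a cell that presents a ligand keep its neighbours in the progenitor state. Of 8 of its genes, 7 were higher and none lower (median 1.35), and 6 were higher without the cerebrum library of fetus 1, where *MFNG*, which modifies the receptors, was at 0.25 (edgeR adjusted *p* = 0.0782). *MFNG* lost its call in 9 of 28 alternatives, among them the CON, the RES and the male fetuses alone. On liver and muscle alone 7 of the 8 passed the filter. The ligand *DLL1* ran from 32.0 CPM over a median of 68.5 to 97.7 in the cerebrum. Liver had 2.90 to 7.16 CPM and muscle 5.99 to 27.4, a log2 difference of 3.01 ± 0.17 without overlap. The receptor *NOTCH1* was at 22.1 to 172 CPM against 7.88 to 38.7 and 34.3 to 64.1, which overlapped, and differed by 1.44 ± 0.15. The largest difference was that of *HES5*, a target of the pathway in neural progenitors, with 29.7 CPM, a median of 50.9 and a highest level of 67.1 in the cerebrum, and 9.06 ± 0.27 on the log2 scale. *NOTCH3*, a receptor of blood vessel walls, did not pass the test at 0.21 ± 0.12 (adjusted *p* = 0.101), though it did with upper quartile scaling and without the 4 liver libraries.

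The genes of cell division that could be tested, 7 of 18 listed, were lower or did not pass the test. Of these 7 genes, 4 were lower and none higher, with a median log2 difference of -0.92. Only 1 was lower beyond 2-fold against both tissues. The shares of all genes were 39.2% lower and 41.0% higher, and so short a list says little beside them. Without the cerebrum library of fetus 1, 4 were lower and 1 was higher (*CCND1*). *MCM2*, a part of the helicase that opens DNA for replication, had 36.9 CPM at the lowest, 64.6 at the median and 88.8 at the highest in the cerebrum. It had 420 to 632 CPM in the liver and 82.4 to 161 CPM in muscle, and differed by -2.04 ± 0.11 (adjusted *p* = 1.28e-17). *TOP2A*, which untangles DNA before mitosis, had 106 to 706 CPM in the cerebrum, where liver had 116 to 381 and muscle 218 to 348, and did not pass the test (0.22 ± 0.19, adjusted *p* = 0.294). It was called higher in male fetuses alone (0.49, edgeR adjusted *p* = 0.0276). *CCND1*, a cyclin that starts the cell cycle, was between the tissues, 2.07 ± 0.23 above the liver and 1.31 ± 0.21 below muscle on the log2 scale. Against the mean of both it missed the threshold (0.38 ± 0.18, edgeR adjusted *p* = 0.0582), but it was called higher in 13 of 28 alternatives, among them DESeq2 (0.43, adjusted *p* = 0.0276) and the fit without the cerebrum library of fetus 1 (0.42, adjusted *p* = 0.0348).

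Young neurons gave the largest list. All 24 genes were higher, 23 of them beyond 2-fold against both tissues, and the median log2 difference was 6.79. On liver and muscle alone 15 passed the filter, and 14 of these were higher beyond 2-fold. *NSG2*, a protein of vesicle traffic in neurons, ran from 448 CPM over a median of 877 to 1290, against at most 2.98 in the liver and 55.9 in muscle (9.80 ± 0.46). *TUBB3*, the tubulin of neurons, ran from 379 CPM over 896 to 2001, and its highest muscle level was 425 CPM, in fetus 73. Without that library the highest muscle level of *TUBB3* was 99.5 CPM, and the tissues no longer overlapped. *STMN2*, which regulates microtubules in growing axons, ran from 1264 CPM over 2284 to 5899 and did not overlap with the other tissues. Its highest level was in CON fetus 23, and its lowest in RES fetus 1. *DCX*, the microtubule protein of migrating neurons, varied more, from 1.01 CPM in fetus 1 over a median of 31.5 to 94.96, and overlapped with muscle (1.77 to 15.1 CPM).

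**Figure D2:**
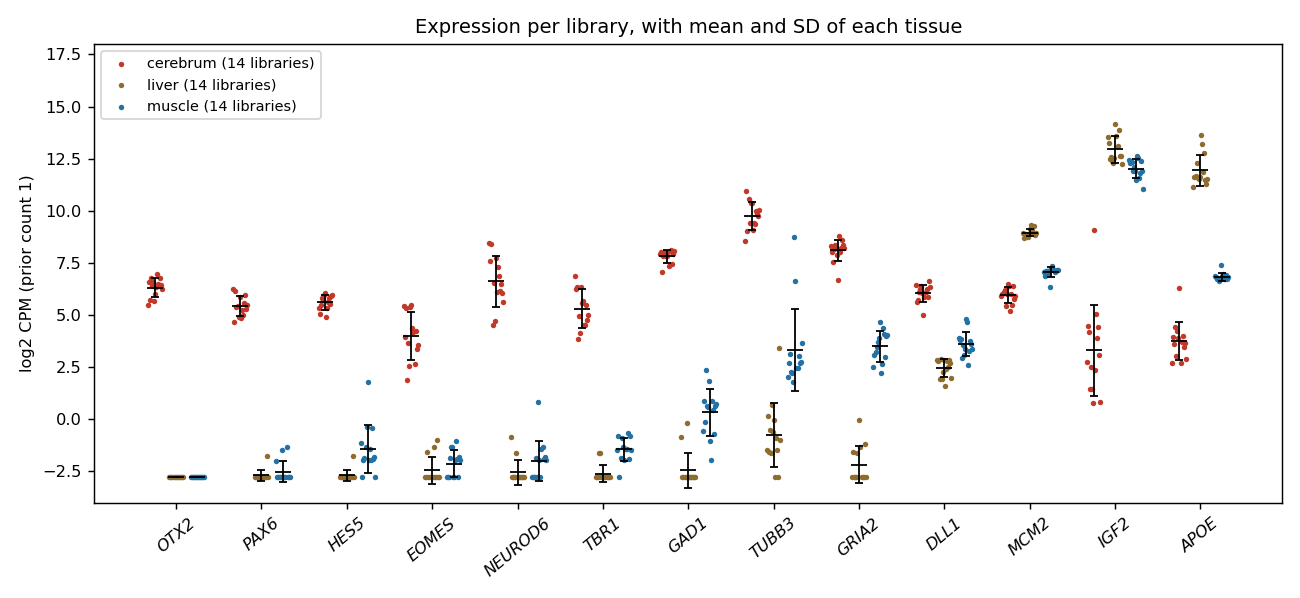
Log2 CPM of 13 genes in the 42 libraries, with 14 points per tissue and the mean with its SD in black. Patterning, progenitor and neuronal genes are high in the cerebrum alone apart from single muscle libraries, *DLL1* is above both other tissues by less, and *MCM2*, *IGF2* and *APOE* are below both.

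Cortical excitatory neurons and inhibitory neurons were both represented. All 10 excitatory genes were higher, 8 beyond 2-fold against both tissues (median 8.72, or 8.43 with genes without counts in a tissue set to 3 counts), and so were all 11 inhibitory or ventral genes, 9 of them beyond 2-fold (median 5.58). Of the excitatory genes 7 passed the filter only because of the cerebrum, which left 3 that were higher and 1 of them beyond 2-fold. Of the inhibitory or ventral genes 7 passed on liver and muscle alone, all higher and 5 beyond 2-fold. *NEUROD2*, a transcription factor of excitatory neurons, ran from 9.37 CPM over a median of 24.4 to 73.5, without counts in the liver, at least 683-fold lower there. *FEZF2*, which specifies deep-layer projection neurons, ran from 10.1 CPM over 17.5 to 54.02. The vesicular glutamate transporter *SLC17A6* ran from 26.3 CPM over 82.4 to 119, against at most 0.184 in the liver and 24.2 in muscle.

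On the inhibitory side, *SLC32A1*, the vesicular transporter of GABA and glycine, ran from 12.9 CPM over a median of 27.2 to 52.1, and no read was counted on it in the liver, at least 741-fold lower. *SST*, a peptide of cortical interneurons and the hypothalamus, ran from 18.7 CPM over 50.2 to 93.8 (8.18 ± 0.23), and *NPY*, another such peptide, from 14.0 CPM over 24.3 to 64.9 (5.38 ± 0.25). *LHX5* and *LHX1*, transcription factors of Cajal-Retzius cells, the diencephalon and the hindbrain, were the 2 genes tested of their list, and both passed the filter only because of the cerebrum. *LHX5* ran from 7.39 CPM over a median of 43.2 to 82.1, and *LHX1* from 15.1 CPM over 109 to 142. None of these 5 genes overlapped with the other tissues.

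Synapse and channel genes were read mostly in the cerebrum. All 20 genes tested were higher beyond 2-fold against both tissues, with a median log2 difference of 6.70 (6.58 with genes without counts in a tissue set to 3 counts). Of these, 11 passed the filter only because of the cerebrum, and the other 9 were also higher beyond 2-fold. *GRIA2*, a subunit of AMPA glutamate receptors, ran from 103 CPM over a median of 297 to 449, against 4.49 to 25.5 in muscle and at most 0.830 in the liver (7.97 ± 0.22). *SLC12A5*, the chloride pump of neurons, ran from 15.2 CPM over 50.9 to 69.02, against at most 1.19 elsewhere. *SYP*, a protein of synaptic vesicles, ran from 62.3 CPM over 165 to 194 and overlapped only with the muscle library of fetus 73 (73.9 CPM). *SEZ6*, a membrane protein of dendrites outside the list, was among the 12 largest differences, with 130 CPM, a median of 288 and a highest level of 405 (9.38 ± 0.43).

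Guidance genes gave 11 of 11 higher, 8 of them beyond 2-fold against both tissues (median 5.25), and 9 of the 11 passed the filter on liver and muscle alone. *DRAXIN*, a repellent of commissural axons, ran from 3.40 CPM over a median of 19.0 to 40.7 without counts in the liver, where it was at least 491-fold lower. *NCAN*, a proteoglycan of the brain's extracellular matrix, ran from 326 CPM over 515 to 755 and did not overlap with the others. *CNTN2*, an adhesion protein of early axons, had 97.1 to 267 CPM in the cerebrum, but 1076 CPM in the muscle library of fetus 73. In the other 13 muscle libraries its highest level was 289 CPM, in fetus 1, so that it overlapped there as well. The guidance genes summed to 1600 CPM in the muscle of fetus 73 and to 456 CPM in that of fetus 1, against a muscle median of 117 CPM.

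Regulators of neuronal splicing and chromatin had log2 differences between -0.07 and 7.20. Of 12 genes, 10 were higher and none lower, 7 of them beyond 2-fold against both tissues (median 3.13), and 10 of the 12 passed the filter on liver and muscle alone. *SRRM4*, a splicing factor of neurons, ran from 1.76 CPM over a median of 12.9 to 22.1 (7.20 ± 0.52). *ACTL6B*, the subunit that enters the BAF chromatin complex in neurons, ran from 55.2 CPM over 92.9 to 130 (5.71 ± 0.42), and *SS18L1*, its partner there, differed by 2.08 ± 0.08. Of the subunits that other tissues use as well, *SMARCA4*, the ATPase of the complex, was higher by 0.62 ± 0.11. *PHF10* was higher by 0.21 ± 0.06, a call lost in 3 of 28 alternatives, among them the CON and the RES fetuses alone. *SS18* was at -0.07 ± 0.15 (edgeR adjusted *p* = 0.684), and at -0.29 (adjusted *p* = 0.00991) without the 4 liver libraries. *REST*, which silences neuronal genes outside the nervous system, was at 18.4 to 75.0 CPM in the cerebrum and at 50.0 to 90.9 CPM in muscle, and did not pass the test (0.35 ± 0.23, adjusted *p* = 0.156). Its log2 CPM was 1.82 to 5.51 in the liver, against 4.21 to 6.23 in the cerebrum and 5.65 to 6.51 in muscle.

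**Figure D3:**
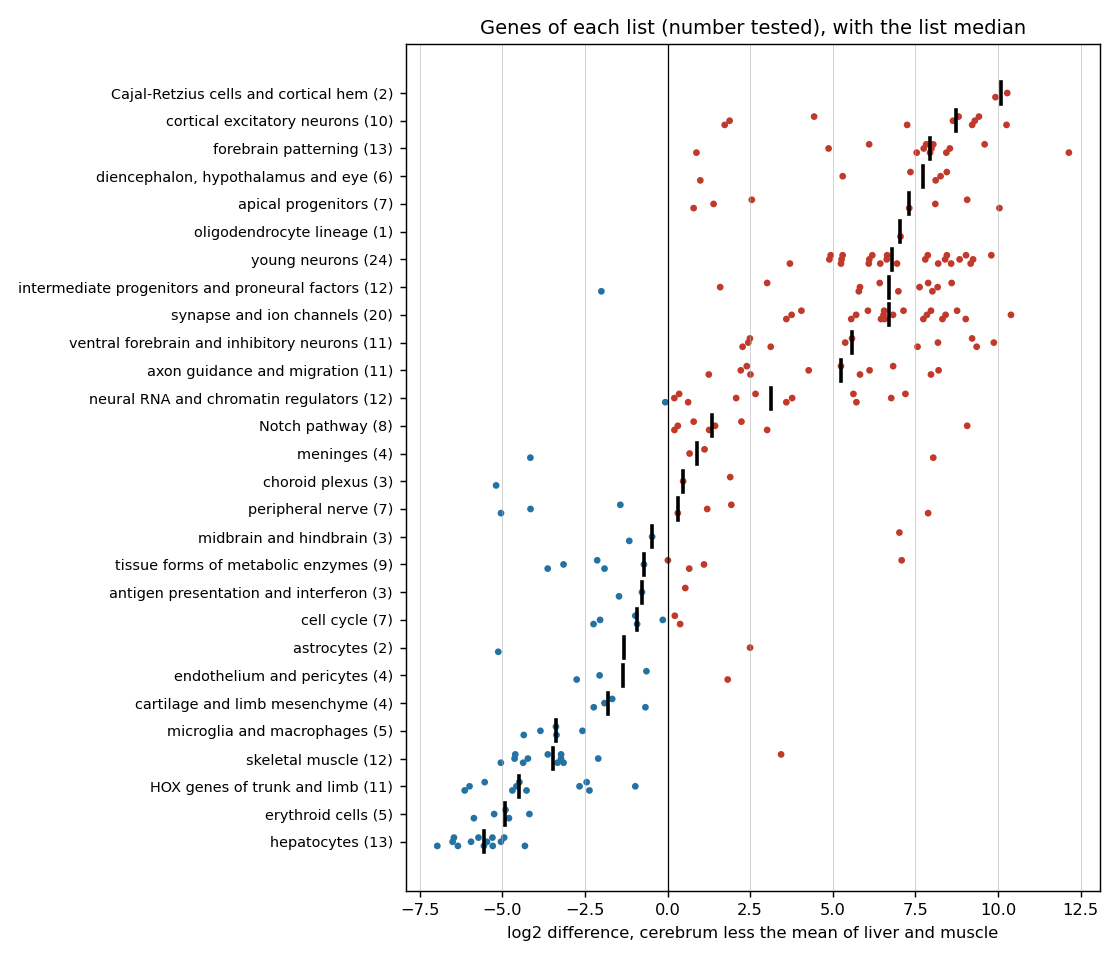
Log2 difference between the cerebrum and the mean of liver and muscle for every tested gene of the 28 lists, with the number of genes in parentheses and the list median as a black bar. Red points are above 0 and blue points below. Lists of the forebrain and of neurons have medians between 5.25 and 10.1, the Notch pathway has 1.35, cell cycle -0.92, and the HOX genes -4.48.

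Some regional genes of the brain varied between the cerebrum libraries. The median SD of log2 CPM over the 14 libraries was 0.53 for all genes tested. It was 0.59 for the 13 forebrain patterning genes and 0.62 for the 11 inhibitory or ventral genes, near that of all genes. It was 0.75 for the 10 genes of excitatory neurons, 0.91 for *LHX5* and *LHX1*, 1.73 for 3 genes of the midbrain and hindbrain and 0.96 for 6 genes of the diencephalon, hypothalamus and eye, but also 0.77 for the 20 synapse genes, which mark no region. The 6 genes of the diencephalon, hypothalamus and eye were all higher in the cerebrum (median 7.73), and 5 of them passed the filter only because of it. *OTP*, a transcription factor of the hypothalamus, ran from 1.09 CPM in fetus 25 over a median of 26.4 to 62.5 in fetus 23. *NKX2-1*, which marks the ventral telencephalon and the hypothalamus, ran from 0.629 CPM in fetus 1 over 23.99 to 44.7 in fetus 46, and fetus 25 had 5.62. Both genes were low in the libraries of fetuses 1 and 25, whereas *OTX2* had 64.8 and 125 CPM in them.

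The following pattern was chosen after its values were seen. In the libraries of fetuses 2 and 46, *NEUROD6* was highest, with 354 and 338 CPM, and *LHX1* lowest, with 25.5 and 15.1 CPM. *BARHL1*, a factor of the diencephalon and hindbrain, was also lowest in these libraries, at 0.369 and 0.510 CPM. In the libraries of fetuses 54 and 69 the order was turned around. There *NEUROD6* was lowest, with 22.7 and 25.7 CPM, *LHX1* was at 116 and 139 CPM, and *BARHL1* highest, with 14.8 and 15.03 CPM. These 4 fetuses are all of the CON group. Fetus 23, also CON, did not follow the pattern, with *NEUROD6* at 195 CPM and the highest *LHX1* of the 14 libraries, 142 CPM.

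**Figure D4:**
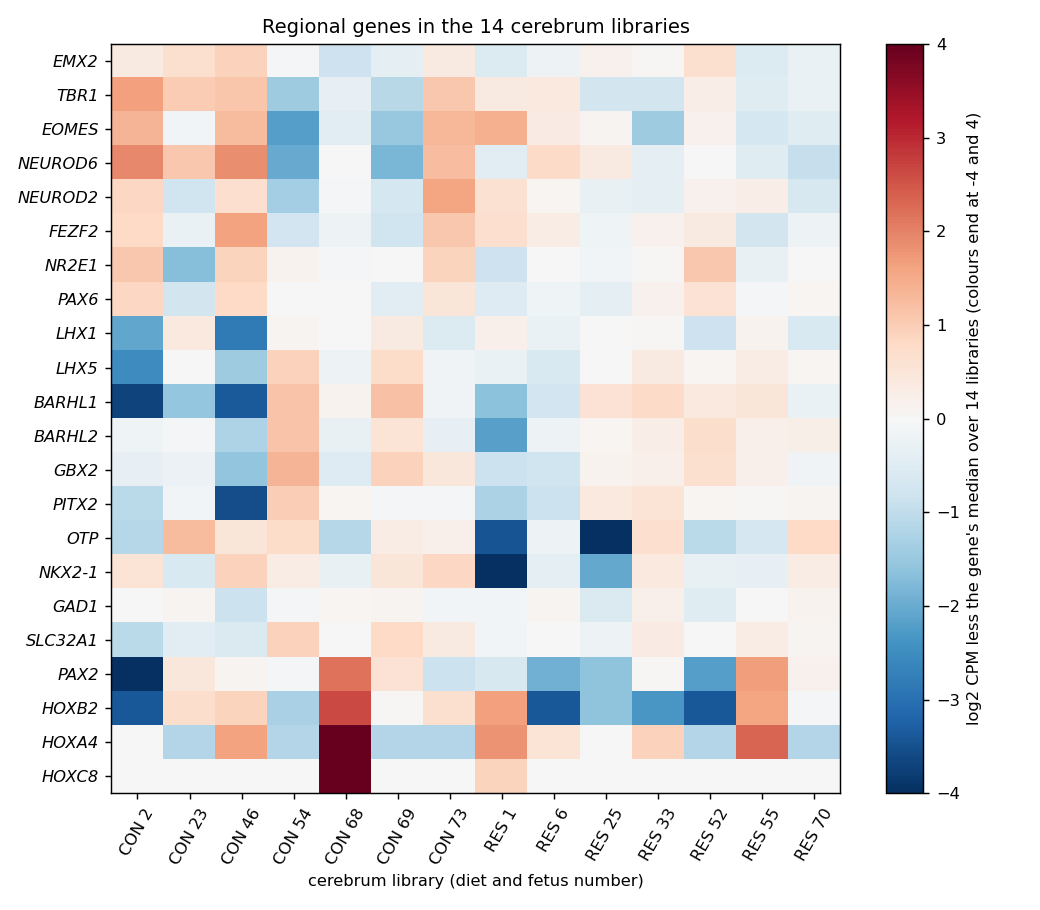
Log2 CPM of 22 regional genes in the 14 cerebrum libraries, each less the gene's median, with genes in rows and libraries (diet and fetus number) in columns. In fetuses 2 and 46, *TBR1* and *NEUROD6* near the top are red and *LHX1*, *LHX5* and *BARHL1* below them blue, fetuses 1 and 25 are blue for *NKX2-1* and *OTP*, and fetus 68 is red for *PAX2* and 3 HOX genes.

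Genes of posterior identity were low or absent. Of 11 HOX genes of trunk and limb, 8 were lower in the cerebrum and none higher. The count was 11 with DESeq2, 5 without the replicate block, 5 in CON fetuses alone and 6 in RES fetuses alone. Only *HOXA4* was lower beyond 2-fold against both tissues, and the other 10 had at most 0.918 CPM in the liver (*HOXD8*). *HOXA10*, which patterns the limb and the lumbar trunk, had at most 0.170 CPM in the cerebrum and 0.298 CPM in the liver, but 54.2 to 86.0 CPM in muscle. Its 2 counts in the cerebrum gave a ratio to muscle of 0.000284, with a 95% counting interval of 3.4e-05 to 0.00103. *HOXC8*, a gene of the thoracic trunk, had counts in 2 cerebrum libraries only, those of CON fetus 68 (10.8 CPM) and RES fetus 1. The library of fetus 68 also had the highest level of *HOXA4* (10.4 CPM), of *HOXB2*, a hindbrain gene (9.45 CPM), and of *PAX2*, a gene of the midbrain-hindbrain boundary, of spinal neurons and of the optic stalk (16.9 CPM). The sum of the 11 HOX genes was 38.6 CPM in it, against at most 5.79 CPM in the other 13 libraries.

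The largest decrease of a named gene was that of *IGF2*, a fetal growth factor. It ran from 1.56 CPM over a median of 7.38 to 535 in the cerebrum. Liver levels were 4788 to 18,254 CPM and muscle levels 2126 to 6302 CPM. Its log2 difference was -9.00 ± 0.55 (edgeR adjusted *p* = 4.08e-16), and without fetus 1 its highest cerebrum level was 33.3 CPM. *APOE*, which carries lipids, ran from 6.28 CPM over 12.8 to 78.6 in the cerebrum, against 2243 to 12,653 in the liver and 98.9 to 168 in muscle (-5.61 ± 0.25). In both genes the highest cerebrum library was that of fetus 1, and it was still below all 28 others.

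Among regulators, *HAND2*, a transcription factor of heart, limb and sympathetic neurons, had at most 0.503 CPM in the cerebrum and 3.28 to 40.7 CPM elsewhere (-7.92 ± 0.40). *FGFR4*, the fibroblast growth factor receptor of liver and of muscle progenitors, had a median of 0.229 CPM and at most 3.52 against 31.8 to 204 CPM (-7.47 ± 0.32). *TUBA4A*, an alpha-tubulin, went the opposite way to *TUBA1A*, the alpha-tubulin of young neurons. The former had at most 5.29 CPM in the cerebrum and 9.54 to 437 CPM elsewhere (-7.23 ± 0.35), and the latter 2323 to 8635 CPM in the cerebrum and at most 1844 CPM elsewhere (3.91 ± 0.21). The other genes of the 12 largest decreases were *SAMD9* and *LSP1*, which are linked to immune cells, *HJV*, a coreceptor that controls hepcidin in liver and is made in muscle, *CARNS1*, the enzyme that makes carnosine, *CPN1*, a carboxypeptidase secreted by the liver, *TCEA3*, a transcription elongation factor, and *ANGPTL6*, a secreted protein. Their log2 differences ran from -8.30 (*SAMD9*, with 3 counts over the 14 cerebrum libraries) to -5.55 (*ANGPTL6*). The rule for naming these 12 genes, and the 12 with the largest increases, asked for no overlap with the other tissues.

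Enzyme forms differed by gene. Of 9 genes for tissue forms of metabolic enzymes, 3 were higher and 5 lower (3 lower in CON fetuses alone; median -0.71), near the shares of 41.0% and 39.2% of all genes. *ENO2*, the enolase of neurons, ran from 103 CPM over a median of 207 to 290, against at most 2.38 in the liver and 58.4 in muscle (7.08 ± 0.34). *ENO3*, the enolase of muscle, had 4.87 to 19.0 CPM, against 12.5 to 46.9 in the liver and 23.9 to 141 in muscle (-2.13 ± 0.16). *PYGB*, the brain form of glycogen phosphorylase, was higher by 1.10 ± 0.11 only, with 44.9 to 92.7 CPM against 34.6 to 53.5 CPM in muscle.

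Genes of microglia and macrophages left few reads in the cerebrum, and genes of vessels left more. Of 5 genes of microglia and macrophages, all 5 were lower, 4 of them beyond 2-fold against both tissues (median -3.37). Their sum had a median of 7.63 CPM in the cerebrum, against 511 for liver and 34.5 for muscle, and *C1QB*, a part of complement, was the leading gene in the cerebrum. *CSF1R*, the receptor that these cells need to survive, had 1.49 to 11.8 CPM in the cerebrum, and the highest value was that of fetus 1. Of 4 genes of vessels, 3 were lower and 1 higher. Their sum had a median of 61.0 CPM in the cerebrum, against 381 for liver and 210 for muscle. *PDGFRB*, a receptor of pericytes and other mesenchyme, had 10.8 to 67.7 CPM in the cerebrum and at least 95.5 CPM elsewhere, whereas *RGS5*, a further pericyte gene, was higher by 1.82 ± 0.32.

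Only 3 glial genes could be followed, and they were mixed. *OLIG1*, of the oligodendrocyte lineage, ran from 0.739 CPM over a median of 4.59 to 8.38, without counts in the liver and with at most 0.217 CPM in muscle (7.04 ± 0.33), and passed the filter only because of the cerebrum. *S100B*, found in astrocytes and in Schwann cells, was higher by 2.50 ± 0.15, while *ALDH1L1*, an astrocyte and liver enzyme, had at most 1.01 CPM in the cerebrum. These are 3 of the 14 genes in both lists. The other 11 had no symbol in the tables used, so their levels were not analysed here.

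Markers of liver, blood and muscle were low in the cerebrum. Of 13 hepatocyte genes, 12 were lower than the mean of liver and muscle, but none was lower beyond 2-fold against both. Their sum had a median of 13.7 CPM in the cerebrum and 20.5 CPM in muscle, so the difference was that from the liver. The exception was *HNF4A*, the main regulator of hepatocytes, which edgeR did not call (adjusted *p* = 1) and DESeq2 did (adjusted *p* = 5.62e-15). It had 0 counts in all 14 cerebrum libraries, that of fetus 1 included, and in all muscle libraries, at least 1655-fold lower than in the liver. *ALB*, serum albumin, ran from 2.99 CPM over a median of 4.45 to 71.6. Muscle, which also lacks hepatocytes, had 1.81 to 16.3 CPM. Of 12 skeletal muscle genes, 10 were lower, again none beyond 2-fold against both (median sum 13.2 CPM in the cerebrum and 15.9 in the liver). The 1 gene called higher was *PAX7*, which marks muscle stem cells and also the dorsal midbrain and neural tube, with 0 to 8.27 CPM in the cerebrum and 0.444 to 5.65 CPM in muscle. It had no counts in the liver, and did not differ from muscle past the threshold (-0.42 ± 0.52, edgeR adjusted *p* = 0.492). *MYH3*, embryonic myosin, had a median of 3.03 CPM, and 72.1 CPM in fetus 1. *HBA*, a globin, had a median of 5.91 CPM, with 181 CPM in fetus 1 and 54.4 CPM in fetus 25.

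*TTR*, the thyroid hormone carrier made by the choroid plexus and the liver, varied widely between the cerebrum libraries. It ran from 11.03 CPM in fetus 69 over a median of 55.4 to 5632 in fetus 1, while 5 further libraries had between 210 and 1102 CPM. Its log2 difference was 7.45 ± 0.81 against muscle and -3.65 ± 0.69 against the liver, and against the mean of both it was 1.90 ± 0.61 (adjusted *p* = 0.00578), a call lost in the CON fetuses alone. Of the other listed genes of the choroid plexus, *AQP1*, a water channel, had a median of 0.810 CPM and its highest level, 12.0 CPM, also in fetus 1, and *PRLR*, the prolactin receptor, had at most 1.29 CPM. Meninges gave 1 of 4 genes higher (*ZIC1*, also a gene of the dorsal neural tube) and 1 lower (*PTGDS*, -4.15 ± 0.23). The transporters *SLC13A4* and *SLC6A20* did not pass, but were called higher in 12 and 4 of 27 alternatives. For *SLC13A4* these included DESeq2 (1.12, adjusted *p* = 0.0418). Both passed in RES fetuses alone. Without the muscle library of fetus 73, 3 of 4 genes were higher, with *SLC6A20* at 0.82 (edgeR adjusted *p* = 0.0262) and *SLC13A4* at 1.30 (adjusted *p* = 0.0233).

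**Figure D5:**
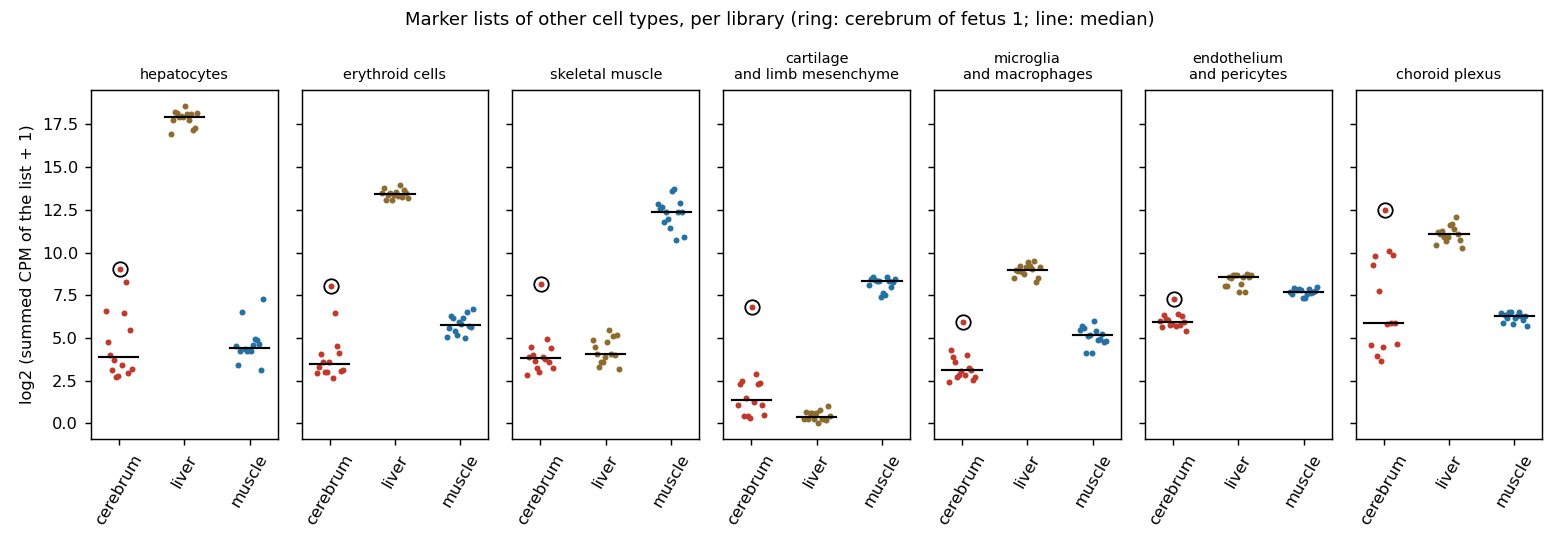
Summed CPM of 7 marker lists of other cell types, as log2 of the sum plus 1, in the 14 libraries of each tissue, with a line at the median and a ring around the cerebrum of fetus 1. In all 7 lists the ringed library is the highest of the cerebrum. It remains below the median of the liver for hepatocyte and erythroid genes and below that of muscle for skeletal muscle genes.

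By counts, the cerebrum libraries were led by mitochondrial genes. The 10 leading genes took 6.07% of the counts, and 6 of them were mitochondrial, with *COX1* at 1.90%. *TUBA1A* took 0.479% of the counts, and the remaining 3 had no symbol. These shares pool libraries whose mitochondrial share ran from 2.73% to 14.7%. By the median over the 14 libraries *COX1* took 1.40%, *ATP6* 0.507%, *TUBA1A* 0.469% and *ND1* 0.422%. *COX3*, above *TUBA1A* in the pooled counts at 0.572%, had a median of 0.388% and a highest share of 2.38%.

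Whether the contrast depends on the diet of the dam was tested as the difference between RES and CON. No gene passed at an adjusted *p* under 0.05 (0 of 15,972, edgeR), and 431 (2.70%) had an unadjusted *p* under 0.05. DESeq2 gave 0 and 456. The unadjusted count ran from 322 to 1115 with 1 fetus left out in turn (1115 without fetus 70, 777 without fetus 2, 747 without fetus 55), and was 1590 in males alone, with 0 genes at the adjusted threshold in each. Of the 224 listed genes, 12 (5.36%) had an unadjusted *p* under 0.05. The 5 genes of lowest *p* were *CPN1*, *FAM20A*, a secretory pathway protein of mineralized tissue, and ENSBTAG00000052779, ENSBTAG00000052496 and ENSBTAG00000008092, which have no symbol. *CPN1* had a difference of 4.86 ± 1.03 on the log2 scale (edgeR adjusted *p* = 0.996), from 0 CPM in all CON cerebrum libraries and at most 2.27 CPM in RES. *FAM20A* had one of 3.13 ± 0.74 and also at most 2.27 CPM in RES. Both highest levels were those of fetus 1, the library with 535 CPM of hepatocyte genes. Without it the highest were 0.544 CPM for *CPN1* and 0.812 CPM for *FAM20A*. The diet difference without this library was 3.73 for *CPN1* (edgeR unadjusted *p* = 0.000315) and 2.66 for *FAM20A* (edgeR unadjusted *p* = 0.00136), and neither passed the adjusted threshold. The cause of these differences was not tested. For the 3 marker genes the groups overlapped. *NEUROD6* ran from 22.7 to 354 CPM in CON and from 49.1 to 157 in RES, and *TBR1* from 14.1 to 118 CPM in CON and from 22.5 to 50.0 in RES. *GAD1* ran from 133 to 263 CPM in CON and from 163 to 279 in RES, with a diet difference of 2.11 ± 0.95 in the contrast (unadjusted *p* = 0.035, edgeR adjusted *p* = 0.996). Its mean log2 CPM over the cerebrum libraries was 7.82 for CON and 7.83 for RES. Liver libraries held 6 reads of it in all, 2 in CON fetus 2 and 4 in CON fetus 69, and without fetus 69 the diet difference was 1.59 (edgeR unadjusted *p* = 0.137).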

How the data were processed

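Per the study's methods, strand-specific 50-bp paired-end libraries were checked with FastQC 0.11.8 and aligned with STAR 2.7.3a to the bovine genome ARS-UCD 1.2 with the annotation of Ensembl release 100. The counts deposited by the authors are raw reads per gene as STAR counts them, 1 column per library. The strand column used is not given in the sources used here. Gene symbols were taken from the study's supplementary tables.

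Genes under 1 CPM in 80% or more of the 42 libraries were dropped. Counts were scaled by TMM and fitted with edgeR 4.0.16 (R 4.3.3, quasi-likelihood test), with tissue and fetus as terms. Replicates are separate fetuses, and the 3 libraries of 1 animal number come from the same fetus, so the fetus was the block. Deviations from the group means had a median correlation of 0.0826 over 42 tissue pairs within fetuses and -0.0123 between fetuses. The main contrast was the cerebrum against the mean of liver and muscle. The 2-fold call tested each tissue pair against a log2 change of 1, and the diet test was the interaction of diet with the contrast. p-values were adjusted by Benjamini-Hochberg over all genes tested. SE is the log2 difference divided by the square root of F. Log2 CPM values use a prior count of 1. Intervals on few counts are 95% counting intervals and, like the 3-count floor, cover counting error only. For genes without counts in a tissue the fitted log2 difference depends on the prior count and is no bound.

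The text names the 12 genes with the largest increases and the 12 with the largest decreases among genes with a symbol that were called beyond 2-fold against both tissues, had a mean of 10 CPM or more in a tissue and did not overlap between cerebrum and other libraries, the 10 genes with the most cerebrum counts, the 5 genes of lowest p for diet, the members of the lists, and genes said to be chosen later. Some listed genes stay in the counts, medians and sums of their lists but are not reported here by name. Lists count gene identifiers. The members and lists were chosen with earlier results of these data known. Code was tested on simulated data. Alternatives were other scalings, filters, DESeq2 1.42.0, no block, diets or males alone, and libraries left out. Figures were drawn with matplotlib 3.10.9.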

Additional observations from a re-analysis of the deposited data

Results flagged for a closer look

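In groups of 7 cerebrum libraries of 1 diet, a library was singled out where its gap to the nearest other was large for the range of the group. Over 174 groups there were 30 such flags, 22 of them on the cerebrum of RES fetus 1. For a single group, chance alone gives a flag at a rate of about 1 in 20. The groups reuse the same 14 libraries, and list sums hold genes also looked at alone. The flags are therefore not independent, and their number cannot be judged by this rate. For *HOXC8*, and for *SAMD9* in CON, all other libraries of the group had 0 CPM. Any read then singles a library out, so this rate does not apply there. Values are log2 CPM, or log2 of the summed CPM plus 1 for lists.

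The cerebrum of fetus 1 was lowest for *SLC17A6* (4.72), *DCX* (0.21), *STMN2* (10.30), *SYP* (5.96), *GRIA2* (6.69), *REST* (4.21), *PTBP2*, a splicing factor of neurons (5.93), *SRRM4* (0.93) and *DRAXIN* (1.83). It was highest for *TCEA3* (2.85), *APOE* (6.30), *HOXC8* (-1.88) and *ENO3* (4.26). Among list sums it was lowest for young neurons (12.44), diencephalon, hypothalamus and eye (4.44), synapse and ion channels (9.22), axon guidance and migration (9.46) and neural RNA and chromatin regulators (9.43). Its sums were highest for microglia and macrophages (5.96), skeletal muscle (8.16), cartilage and limb mesenchyme (6.80) and antigen presentation (5.86).

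In CON, fetus 23 had the highest *STMN2* (12.53) and *SAMD9* (-1.47) and the lowest *NR2E1* (2.22). Fetus 68 had the highest *HOXC8* (3.45) and HOX sum (5.31) and the lowest *SIX3* (4.59). Fetus 46 had the lowest *GAD1* (7.06), and fetus 2 the lowest sum for antigen presentation (4.0). The cause was not tested in any of these.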

How the results depend on the processing

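The 2-fold calls in the main analysis were 1642 higher and 1153 lower. With a stricter filter they were 470 and 645, where only 438 and 714 of these genes were still tested (1 of 13 forebrain patterning, 1 of 10 excitatory, 2 of 20 synapse and 0 of 11 HOX genes), and in RES fetuses alone 739 were lower. Leaving out each fetus in turn gave 1600 to 1725 higher and 1110 to 1400 lower. DESeq2 called 1485 and 891. Without the replicate block the calls were 1665 and 1048, with 0 diet genes (883 unadjusted). Chosen after seeing the data, leaving out the cerebrum of fetus 1 gave 1691 and 1383, the muscle of fetus 73 1685 and 1154, both 1736 and 1387, and 4 liver libraries of high mitochondrial share 1680 and 1239. Of 243 named and listed genes, 202 kept call and direction under every alternative in which they were tested, and so did all 24 of the largest differences. Direction was reversed for *CDH19* in males (0.025), and the cause was not tested. *TTR* lost its call in CON fetuses alone (1.03, adjusted *p* = 0.195). *HNF4A* and *HOXC8*, with few or no counts in the cerebrum, were called lower by DESeq2 (adjusted *p* = 5.62e-15 and 0.000592) and by none of the other fits. For genes near 0 counts, such as *OLIG1*, the depth sets the smallest level that can be shown. Without the 4 liver libraries, 8 of 12 skeletal muscle genes, 7 of 11 HOX genes, 5 of 7 cell division genes and 4 of 9 enzyme genes were lower (with them 10, 8, 4 and 5), and all 8 Notch genes were higher.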

Other observations

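Genes of peripheral nerve were mixed, with 3 of 7 higher (1 without the replicate block) and 3 lower, beside 41.0% and 39.2% of all genes. Of the lower ones, *CDH19*, an adhesion protein of Schwann cell precursors (-1.43), lost its call in 16 of 27 alternatives and was at -0.22 (edgeR adjusted *p* = 0.431) without fetus 55. *TAC1*, the precursor of substance P, which central neurons also make, had 5.66 to 121 CPM in the cerebrum and at most 15.7 in muscle. *ERBB3*, the receptor that Schwann cells need, was lower (-5.04 ± 0.36), with 0.337 to 24.03 CPM against at least 30.6 elsewhere. In muscle, *PRPH*, an intermediate filament of peripheral neurons, reached 816 CPM in the library of fetus 73. The nerve genes summed to 1197 CPM in that library and to 522 CPM in the muscle of fetus 1, against a muscle median of 139 CPM. The call of *PRPH* as higher in the cerebrum was lost without the replicate block (0.65, edgeR adjusted *p* = 0.381).

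Of 3 genes of the midbrain and hindbrain, 1 was higher (*PAX2*) and 2 were lower (*HOXB2* and *PAX8*, the latter by 0.47 with an adjusted *p* of 0.0493 from edgeR). *PAX2* passed the filter only because of the cerebrum, and the 2 lower genes passed it on liver and muscle alone. *PAX8* lost its call in 20 of 27 alternatives, DESeq2 among them (adjusted *p* = 0.102), and *HOXB2* in 3 of 27 (CON alone, and without fetus 2 or 6). Without the cerebrum library of fetus 1 the list had 1 gene higher and 1 lower, with *PAX8* at -0.40 (edgeR adjusted *p* = 0.0832). Of 3 genes of antigen presentation, 2 were lower and 1 was higher. The latter was *TAP1*, a part of the peptide transporter, at 0.54 ± 0.20 (edgeR adjusted *p* = 0.0155). It was below the liver (-0.73 ± 0.23) and above muscle (1.80 ± 0.25), and lost its call in 4 of 27 alternatives. *TAPBP*, which loads peptides on class I molecules, had 8.31 to 53.7 CPM in the cerebrum, against 54.98 to 122 for liver and 24.3 to 43.4 for muscle (-1.47 ± 0.12). All 5 erythroid genes were lower (median -4.90), 1 of them beyond 2-fold against both tissues, but 3 of the 5 passed the filter only because of the liver. Of 4 genes of cartilage and limb mesenchyme 1 was lower (*TWIST1*) and 3 did not pass the test. All 4 passed the filter only because of muscle, so their calls are descriptions. None was lower without the replicate block, in RES fetuses alone or in males alone. Without the cerebrum library of fetus 1, whose sum for this list was 111 CPM against at most 6.52 in the others, 3 of the 4 were lower, with *ACAN*, the proteoglycan of cartilage, at -3.99 (edgeR adjusted *p* = 0.00662) and *TBX15*, a factor of limb mesenchyme, at -2.53 (adjusted *p* = 0.00242). DESeq2 called all 4 lower.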
